A study of Mus musculus with 12 samples.

Results

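Amino acid catabolism and nitrogen disposal in the liver are described here through 43 genes listed by name. They encode enzymes that degrade tyrosine, tryptophan, histidine, lysine, the branched-chain amino acids and methionine, the transaminases, the urea cycle, creatine synthesis and 3 amino acid transporters. A gene was measured by the probe set that carried its symbol alone, and by the probe set with the highest mean where there were several. This gave values for 38 of the 43 genes, out of 19937 genes measured in all; Sds, Sdsl, Gls2, Ass1 and Ahcy were not analysed here. RNA came from whole livers of 12 male C57Bl/6 mice on Affymetrix arrays, with 1 array for each animal. Wild-type (WT) and Hdac6 knockout (KO, HDAC6 Y/-) mice received either vehicle or dexamethasone, which gave 4 groups of 3 animals; an array is named by its group and replicate, such as KO vehicle 2. Dexamethasone, a synthetic glucocorticoid, was given intraperitoneally at 1 mg/kg over 3 weeks, and all groups had free access to food under a 12h light cycle. The age of the mice and the tissues that carry the deletion are not given in the sources used here. Hdac6 encodes a mainly cytoplasmic protein deacetylase.

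Amino acids that are not used for protein lose their amino group, mostly to glutamate through transaminases. The carbon skeleton then enters glucose synthesis or oxidation, while the nitrogen is turned into urea in periportal hepatocytes or captured as glutamine by the hepatocytes around the central vein. Glucocorticoids are known to raise several of these enzymes in liver during fasting, and tyrosine aminotransferase (Tat) and tryptophan dioxygenase (Tdo2) are the textbook examples.

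Each value is an intensity on the log2 scale as deposited, on which 1 unit is a 2-fold difference. Probe sets differ in how strongly they bind, so levels are compared between groups for the same gene and not between genes. Changes carry the standard error (SE) of a limma fit to all 12 arrays, and group levels carry the SD over n = 3 arrays. A change was called when its Benjamini-Hochberg adjusted p, taken over all 17904 genes above the low-signal filter, was under 0.05. All 38 genes passed that filter on every array. Hdac6 itself was lower in the knockout by a log2 change of -2.08 ± 0.14 under vehicle and -2.23 ± 0.14 under dexamethasone (limma, adjusted p = 3.7e-05 and 1.53e-05). Its lowest wild-type value was 5.86 and its highest knockout value 4.4. The 6 measured of 8 hepatocyte markers had a summed level between 15.18 and 15.26 on each array. Exocrine pancreas transcripts were high on 4 arrays, WT vehicle 1, WT vehicle 2, WT dexamethasone 3 and KO vehicle 3. The summed log2 level of 12 of 14 pancreas markers ran from 7.08 to 13.89 in wild-type vehicle, 6.95 to 11.98 in wild-type dexamethasone, 6.97 to 12.74 in knockout vehicle and 6.9 to 7.4 in knockout dexamethasone. The 8 Kupffer cell markers mark resident liver macrophages. In the same order of groups they summed to 10.03 to 10.81, 9.05 to 9.5, 9.94 to 10.34 and 9.75 to 10.46. With dexamethasone 6 of the 8 were called lower among wild-type livers, against 6.95% of all genes. Among knockout livers 0 of the 8 were called lower, against 3.92% of all genes. The change with dexamethasone was called different between genotypes for 0 of the 8. An unadjusted p under 0.05 for that difference was found for 5 of the 8 (limma), and for 1109 of all 17904 genes. The 6 endothelial markers summed to 10.33 to 10.69, 9.99 to 10.13, 10.34 to 10.59 and 10.12 to 10.33. With dexamethasone 1 was called higher and 3 lower in wild type, against 4.57% and 6.95% of all genes. In the knockout 1 was higher and 2 lower, against 4.38% and 3.92%. The higher one was Lyve1, at 5.45 to 5.57 against 7.15 to 7.44 in wild type and 4.51 to 5.12 against 7.07 to 7.68 in the knockout. The list therefore did not move in 1 direction. No marker of these lists was at 0. The part of these cell types in the results was not tested. Fits without the 4 arrays and with a marker mean as covariate are given below. The mean log2 level of the Kupffer markers ran from 6.68 to 7.72 in wild-type vehicle and 5.71 to 6.18 in wild-type dexamethasone. With no overlap there, the Kupffer covariate fit cannot tell treatment and these cells apart in wild type.

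Dexamethasone raised some of these genes and lowered others in both genotypes. In wild-type livers 9 of the 38 genes rose and 4 fell, 34.2% against 11.5% of all 17904 genes (4.57% higher and 6.95% lower). The fall count rests on single arrays: 8 rose and 1 fell without WT vehicle 1, 7 and 2 without WT dexamethasone 2, and 9 and 1 without WT dexamethasone 3. In knockout livers 9 rose and 2 fell, 28.9% against 8.29% of all genes (4.38% higher and 3.92% lower). Averaged over both genotypes, 10 rose and 7 fell, 44.7% against 17.2% (7.29% higher and 9.94% lower). The genes that rose in both genotypes were the amino acid transporters Slc38a2 and Slc7a2, the transaminases Tat, Got1 and Gpt2, Tdo2, the lysine-degrading enzyme Aass and the urea cycle enzyme Asl, and those that fell in both were the creatine enzyme Gatm and the decarboxylase Ddc. The 38 genes had a median change of 0 (wild type) and 0.05 (knockout), and all genes 0.01 and -0.01; the median size of the change, sign left out, was 0.3 and 0.25 against 0.13 and 0.11. In whole liver, fewer cells of a type and less RNA per cell cannot be told apart. The arrays of the 2 treatments did not overlap for 20 of the 38 genes in wild type (11 higher, 9 lower) and 18 in the knockout (13 higher, 5 lower), against 27% and 24.3% of all genes. Over all 12 arrays the 6 dexamethasone and 6 vehicle arrays lay apart for 12 of the 38 genes (10 higher, 2 lower), against 8.76% of all genes. Without the 4 arrays with pancreas transcripts, which leaves 1 wild-type vehicle array, Got1 (1.43), Aass (1.07), Slc38a2 (1.39) and Gatm (-2.23) kept their wild-type calls. In the average, Kynu, Agxt, Glul, Hal, Mat1a, Cbs and Gamt lost their calls. Fewer of all genes were called in that fit too. With the Kupffer marker mean as a covariate, an alternative added after seeing the data, 4 were called in wild type and 10 in the knockout. Of all 17904 genes, 448 and 1470 were called with that covariate, against 2064 and 1485 without it.

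**Figure D1:**
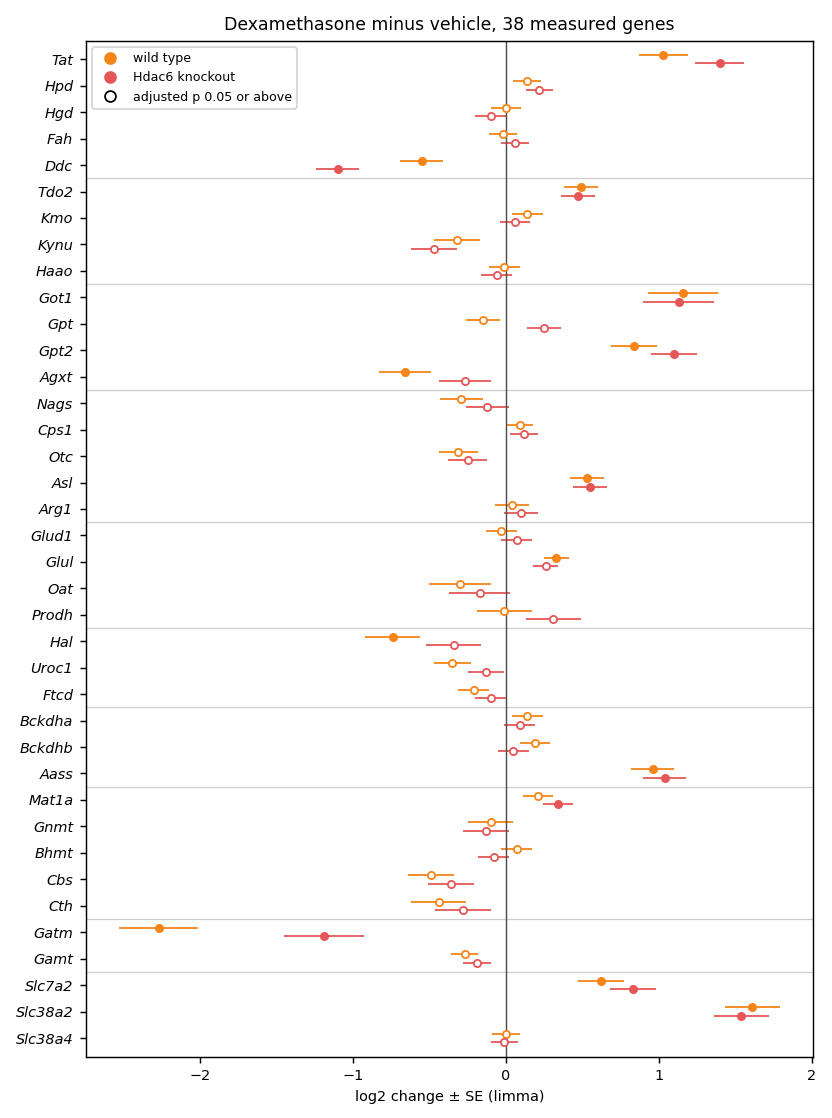
Log2 change with dexamethasone (± SE, limma, 3 arrays against 3) for each of the 38 measured genes, grouped by pathway from tyrosine at the top to transporters at the bottom; filled points passed an adjusted p of 0.05. Slc38a2, Tat, Got1, Gpt2 and Aass lie farthest to the right in both genotypes, and Gatm lies farthest to the left at -2.27 in wild type, against -1.19 in the knockout.

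The wild-type and knockout comparisons share no arrays, so their values can be set side by side. Across the 38 genes the changes in the 2 genotypes correlated with a Pearson r of 0.923 and a Spearman rho of 0.929, and 31 of 38 had the same sign. The corresponding values over all 17904 genes were 0.81, 0.54 and 11683 genes. These correlations are across genes, which are not independent replicates, and describe these arrays only.

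The transporter Slc38a2 (SNAT2), which carries neutral amino acids into cells with sodium, showed the largest increase among the 38 genes in both genotypes. It read 9.13, 8.65 and 9.22 on the wild-type vehicle arrays and 10.57, 10.65 and 10.6 on the wild-type dexamethasone arrays. In the knockout it read 8.96, 9.21 and 9.36 with vehicle and 11.05, 10.78 and 10.34 with dexamethasone. Every dexamethasone array lay above every vehicle array. The log2 change was 1.61 ± 0.18 in wild type (3.05-fold, adjusted p = 7.07e-05) and 1.54 ± 0.18 in the knockout (2.92-fold, adjusted p = 0.000103, limma). Slc7a2, a carrier of arginine, lysine and ornithine, read 10.52, 10.19 and 10.49 against 10.97, 11.19 and 10.9 in wild type, and 10.3, 9.72 and 10.26 against 11.08, 10.87 and 10.81 in the knockout. Its groups did not overlap in either genotype, and it rose by 0.62 ± 0.15 (adjusted p = 0.0185) and 0.83 ± 0.15 (adjusted p = 0.00367). The wild-type call was lost without WT vehicle 2 (0.51, adjusted p = 0.0725) or WT dexamethasone 2 (0.53, adjusted p = 0.0836). Slc38a4 (SNAT4), a related carrier of the liver, lay between 11.97 and 12.22 on all 12 arrays, with changes of 0 ± 0.09 and -0.01 ± 0.09.

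Promoter sequence is shown for the 5 genes whose average change with dexamethasone was 2-fold or more, Slc38a2, Tat, Got1, Aass and Gatm, and for Ddc, the gene that also differed between genotypes. Each line gives the 250 bases before the RefSeq transcript start on GRCm38.p6, read 5′ to 3′ on the gene's strand. Capitals mark matches, on either strand, to 5 motifs: the glucocorticoid receptor palindrome (GNACA and TGTNC with 3 free bases between), its half-site AGAACA, which can lie inside the palindrome, the cyclic AMP response half-site TGACG, the C/EBP-type motif TTGCNNAA and the TATA box TATAAA. For Ddc the upstream of its 2 windows is given. The windows are Slc38a2 chr15:96699729-96699978 (minus strand), Tat chr8:109990186-109990435 (plus strand), Got1 chr19:43524606-43524855 (minus strand), Aass chr6:23132987-23133236 (minus strand), Gatm chr2:122611278-122611527 (minus strand) and Ddc chr11:11898145-11898394 (minus strand).
Slc38a2: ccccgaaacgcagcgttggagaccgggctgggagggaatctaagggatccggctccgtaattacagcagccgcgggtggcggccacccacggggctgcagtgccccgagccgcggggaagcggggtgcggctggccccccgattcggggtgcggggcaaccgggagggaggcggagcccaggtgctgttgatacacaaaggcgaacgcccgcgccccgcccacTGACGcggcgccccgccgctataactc
Tat: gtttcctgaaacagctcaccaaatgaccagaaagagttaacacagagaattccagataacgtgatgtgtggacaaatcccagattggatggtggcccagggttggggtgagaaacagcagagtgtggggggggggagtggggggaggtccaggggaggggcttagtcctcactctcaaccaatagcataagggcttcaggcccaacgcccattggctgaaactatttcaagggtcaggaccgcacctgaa
Got1: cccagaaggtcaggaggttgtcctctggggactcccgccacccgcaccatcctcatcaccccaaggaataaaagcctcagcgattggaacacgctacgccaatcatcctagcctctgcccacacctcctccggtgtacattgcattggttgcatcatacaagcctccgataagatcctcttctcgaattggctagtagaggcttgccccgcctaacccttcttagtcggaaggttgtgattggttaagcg
Aass: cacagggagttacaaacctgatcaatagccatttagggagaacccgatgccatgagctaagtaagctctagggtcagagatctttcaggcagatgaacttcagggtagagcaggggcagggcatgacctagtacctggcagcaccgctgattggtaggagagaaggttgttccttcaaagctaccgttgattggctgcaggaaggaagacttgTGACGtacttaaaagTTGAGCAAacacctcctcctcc
Gatm: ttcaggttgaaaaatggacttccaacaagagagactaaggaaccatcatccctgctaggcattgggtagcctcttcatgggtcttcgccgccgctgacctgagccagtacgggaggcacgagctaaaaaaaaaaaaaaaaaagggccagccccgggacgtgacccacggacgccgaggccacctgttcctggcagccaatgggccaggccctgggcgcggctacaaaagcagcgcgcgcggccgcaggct
Ddc: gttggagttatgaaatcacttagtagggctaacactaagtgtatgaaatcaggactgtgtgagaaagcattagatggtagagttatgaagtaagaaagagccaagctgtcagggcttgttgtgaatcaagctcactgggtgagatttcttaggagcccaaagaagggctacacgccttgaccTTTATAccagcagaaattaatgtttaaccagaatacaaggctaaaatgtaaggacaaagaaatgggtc
The Slc38a2 window held TGACG 27 bases before the start. Aass held TGACG at 37 bases and TTGCNNAA at 22, and Ddc held TATAAA on the reverse strand at 68. The Tat, Got1 and Gatm windows held none of the 5 motifs, which says only that these letters are not in these bases. RefSeq windows were found for 32 of the 43 genes, 30 of them measured, with 36 windows in all. Their share with the palindrome was 0%, against 0.387% of all 32851 mouse windows of this length. The half-site AGAACA stood in 11.1% against 16.1%, TGACG in 11.1% against 17.8%, TTGCNNAA in 8.33% against 9.56% and TATAAA in 16.7% against 12.4%. A match is a description of the sequence and not evidence of binding.

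**Figure D2:**
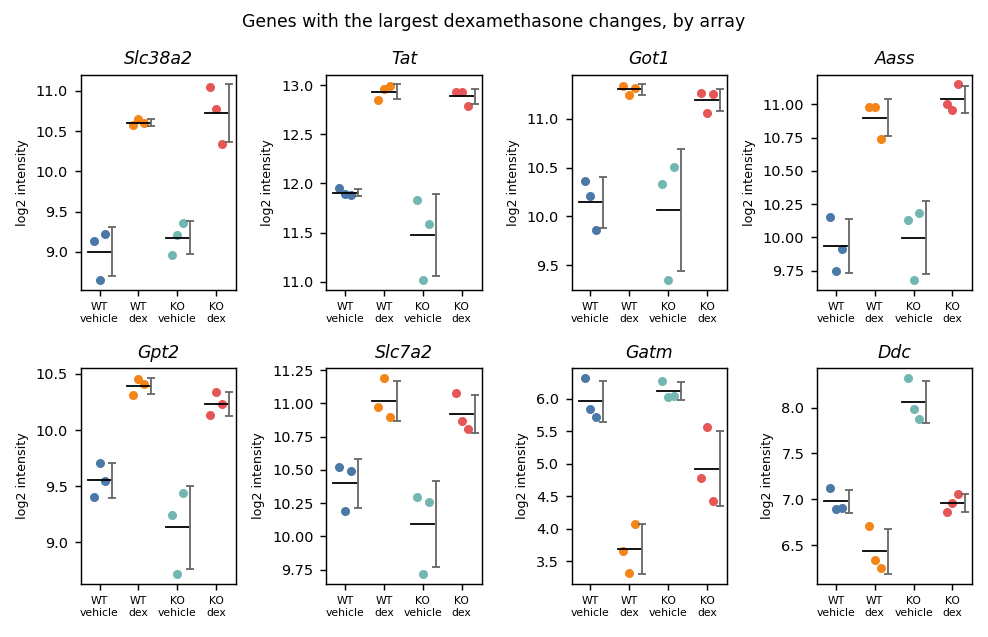
Log2 intensity on each array (points) for the 8 genes with the largest average change with dexamethasone; horizontal lines are group means and bars the SD over 3 arrays. The vertical axes do not start at 0 and differ between panels. For Slc38a2, Tat, Got1, Aass, Gpt2 and Slc7a2 both dexamethasone groups lie above both vehicle groups, Gatm is lower with dexamethasone, and Ddc is highest in knockout vehicle livers.

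In tyrosine breakdown, the entry step was the called one of the 4 steps measured. Tat, which removes the amino group of tyrosine, read 11.95, 11.89 and 11.88 in wild-type vehicle livers and 12.85, 12.96 and 12.99 with dexamethasone. In the knockout the vehicle values were 11.83, 11.02 and 11.59 and the dexamethasone values 12.93, 12.93 and 12.79. All 6 dexamethasone arrays lay above all 6 vehicle arrays. The increase was 1.03 ± 0.16 in wild type (2.04-fold, adjusted p = 0.000814) and 1.40 ± 0.16 in the knockout (2.64-fold, adjusted p = 6.99e-05, limma). Without the 4 arrays with pancreas transcripts the wild-type change was again 1.03 but was not called (adjusted p = 0.0869). The next enzymes of the pathway were not called: the dioxygenase Hpd changed by 0.14 ± 0.09 and 0.22 ± 0.09, the dioxygenase Hgd by 0 ± 0.10 and -0.10 ± 0.10, and Fah, the hydrolase deficient in hereditary tyrosinaemia, by -0.02 ± 0.09 and 0.06 ± 0.09. Hpd lay higher on every dexamethasone array than on every vehicle array, with an average change of 0.18 ± 0.06 (adjusted p = 0.0557; called at 0.0496 with the 50th percentile filter and 0.0266 with the trended and robust variance).

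Ddc, which decarboxylates DOPA and 5-hydroxytryptophan to dopamine and serotonin, went the other way. Wild-type values were 7.12, 6.9 and 6.91 with vehicle and 6.71, 6.34 and 6.25 with dexamethasone. Knockout values were 8.32, 7.98 and 7.88 with vehicle and 6.86, 6.96 and 7.06 with dexamethasone. The treatments did not overlap in either genotype. Ddc fell by 0.55 ± 0.14 in wild type (adjusted p = 0.0206) and by 1.10 ± 0.14 in the knockout (2.15-fold, adjusted p = 0.000202, limma). The wild-type call was lost without WT vehicle 1 (-0.47, adjusted p = 0.0832), WT dexamethasone 2 (-0.50, 0.0815) or WT dexamethasone 3 (-0.45, 0.0852), while the knockout call was kept in all 22 alternatives.

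Of the 4 measured genes of tryptophan breakdown, the entry step rose in both genotypes and Kynu fell on average. Tdo2, which opens the indole ring of tryptophan, read 11.84, 11.47 and 11.82 against 12.31, 12.18 and 12.11 in wild type, and 11.73, 11.69 and 11.68 against 12.12, 12.11 and 12.27 in the knockout. Its dexamethasone arrays all lay above its vehicle arrays. It rose by 0.49 ± 0.11 (adjusted p = 0.00955) and 0.47 ± 0.11 (adjusted p = 0.0151, limma). The knockout call was lost without KO vehicle 3 (0.46, adjusted p = 0.0545) or KO dexamethasone 3 (0.41, adjusted p = 0.066). Kynu, which cleaves kynurenine metabolites, read 10.61, 10.17 and 10.54 against 10.38, 10.08 and 9.91 in wild type, and 10.62, 10.59 and 10.69 against 10.38, 10.24 and 9.89 in the knockout. The treatments overlapped in wild type and not in the knockout. Its change was -0.32 ± 0.15 and -0.47 ± 0.15, neither called alone, and the average of -0.39 ± 0.11 was called (adjusted p = 0.0233). That call was lost in 8 of 22 alternatives, 6 of them single arrays left out (WT vehicle 1 or 3, WT dexamethasone 2 or 3, KO vehicle 3 or KO dexamethasone 3), with changes from -0.38 to -0.32 and adjusted p-values from 0.053 to 0.0592. The hydroxylase Kmo (0.14 ± 0.10 and 0.06 ± 0.10) and the dioxygenase Haao (-0.01 ± 0.10 and -0.06 ± 0.10) were not called.

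Of the transaminases Got1, Gpt2, Gpt and Agxt, 2 rose in both genotypes and 1 fell in wild type. Got1, the cytosolic aspartate aminotransferase, read 10.36, 10.21 and 9.86 in wild-type vehicle livers and 11.34, 11.24 and 11.32 with dexamethasone. Knockout values were 10.33, 9.35 and 10.51 with vehicle and 11.26, 11.06 and 11.25 with dexamethasone. It rose by 1.16 ± 0.23 (2.23-fold, adjusted p = 0.0054) and 1.13 ± 0.23 (2.18-fold, adjusted p = 0.00772, limma), with no overlap. Without KO vehicle 2, whose value of 9.35 was the lowest of all, the knockout increase was 0.77 ± 0.14 (adjusted p = 0.00541). Gpt2, the mitochondrial alanine aminotransferase, read 9.4, 9.71 and 9.55 against 10.31, 10.45 and 10.41 in wild type, and 9.24, 8.72 and 9.44 against 10.13, 10.34 and 10.23 in the knockout. It rose by 0.84 ± 0.15 (adjusted p = 0.00296) and 1.10 ± 0.15 (adjusted p = 0.000412), again with no overlap.

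Its cytosolic counterpart Gpt did not pass the test. Gpt read 9.36, 9.5 and 9.2 against 9.14, 9.22 and 9.24 in wild type, and 9, 8.73 and 9.07 against 9.23, 9.15 and 9.18 in the knockout, changes of -0.15 ± 0.11 and 0.25 ± 0.11. Agxt, the alanine-glyoxylate aminotransferase that detoxifies glyoxylate, read 8.66, 8.63 and 8.58 against 8.05, 7.89 and 7.95 in wild type, and 8.74, 8.24 and 8.73 against 8.62, 8.41 and 7.87 in the knockout. The wild-type groups lay apart and the knockout groups overlapped. Agxt fell by 0.66 ± 0.17 in wild type (adjusted p = 0.0241), changed by -0.27 ± 0.17 in the knockout without being called, and fell by 0.46 ± 0.12 on average (adjusted p = 0.0166, limma). The difference between the genotypes, 0.39 ± 0.24, was not called (adjusted p = 0.852). The wild-type call was lost without WT vehicle 1 or 2 or WT dexamethasone 2 or 3, with adjusted p-values from 0.059 to 0.0845 and changes from -0.66 to -0.62.

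In the urea cycle, 1 of the 5 measured enzymes rose. Asl, which splits argininosuccinate into arginine and fumarate, read 10.22, 10.38 and 10.32 against 10.98, 10.81 and 10.71 in wild type, and 10.08, 9.93 and 10.26 against 10.48, 10.73 and 10.7 in the knockout. All 6 dexamethasone arrays lay above all 6 vehicle arrays, with increases of 0.53 ± 0.11 (adjusted p = 0.00721) and 0.55 ± 0.11 (adjusted p = 0.00689, limma). Cps1, the mitochondrial enzyme that commits ammonia to the cycle, changed by 0.09 ± 0.09 and 0.12 ± 0.09, and Arg1, the arginase that releases urea, by 0.04 ± 0.11 and 0.10 ± 0.11. The 95% intervals in wild type ran from -0.12 to 0.29 for Cps1 and from -0.2 to 0.28 for Arg1. In the knockout the lower limits were -0.08 for Cps1 and -0.14 for Arg1. The Cps1 arrays lay apart in the knockout (12.4 to 12.6 against 12.61 to 12.69). Otc, which makes citrulline, read 10.05, 9.65 and 10.17 against 9.86, 9.49 and 9.6 in wild type, and 10.05, 10.1 and 10.11 against 9.85, 9.83 and 9.82 in the knockout. Its knockout groups lay apart, but the changes of -0.31 ± 0.13 and -0.25 ± 0.13 and the average of -0.28 ± 0.09 (adjusted p = 0.0514) were not called. Without WT vehicle 2 the wild-type change was -0.46 and was called (adjusted p = 0.0206). The average was called in 7 of 22 alternatives: without WT vehicle 2 (-0.36, adjusted p = 0.00515) or WT dexamethasone 1 (-0.33, 0.0244), with the 50th percentile filter, centring, the trended and robust variance, the replicate block or the pancreas covariate (-0.33 to -0.28, 0.035 to 0.0486). Nags, whose product activates Cps1, changed by -0.29 ± 0.14 and -0.12 ± 0.14 and was not called; with the Kupffer covariate its average of -0.35 was (adjusted p = 0.0477).

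In the wider list of pathway genes, 3 of the 5 measured genes of urea cycle and ornithine transport and use rose in both genotypes. Of all genes, 4.57% were called higher in wild type and 4.38% in the knockout. Slc25a13 (citrin), which exports aspartate from mitochondria, rose by 0.50 ± 0.08 (adjusted p = 0.00129) and 0.40 ± 0.08 (adjusted p = 0.00675). Slc25a15, which moves ornithine and citrulline across the inner membrane, rose by 0.82 ± 0.15 (adjusted p = 0.00283) and 0.90 ± 0.15 (adjusted p = 0.00158). The ornithine decarboxylase Odc1, which starts polyamine synthesis, rose by 0.95 ± 0.19 (adjusted p = 0.00444) and 0.71 ± 0.19 (adjusted p = 0.0297, limma). For all 3 genes the treatments did not overlap in either genotype. A further ornithine carrier, Slc25a2, had group means of 2.33 to 2.64 and was not called (0.08 ± 0.12 and 0.27 ± 0.12).

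**Figure D3:**
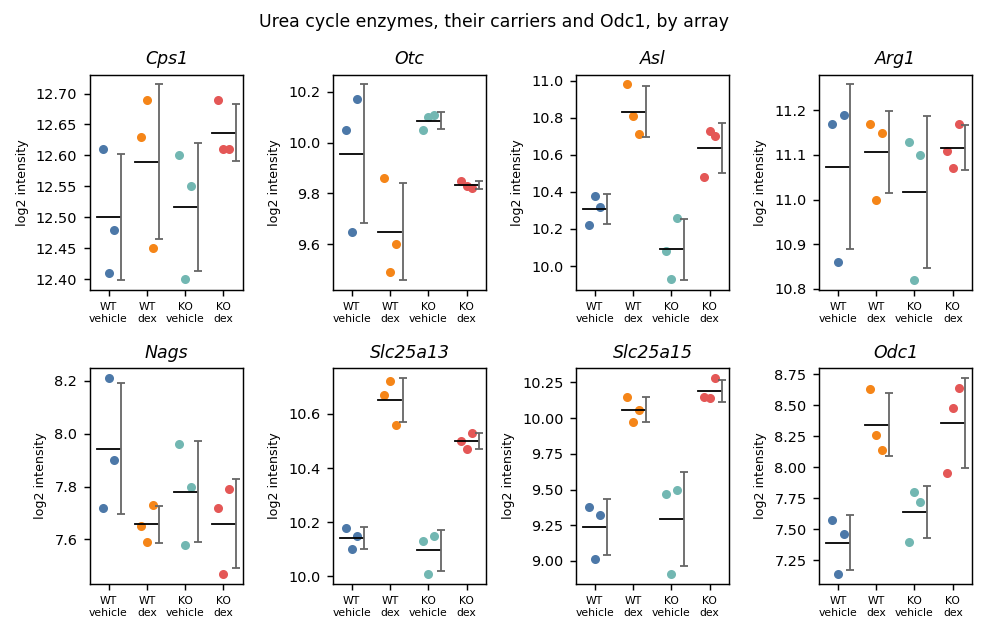
Log2 intensity on each array (points), group mean (line) and SD over 3 arrays (bar) for the 5 measured urea cycle enzymes, the carriers Slc25a13 and Slc25a15 and the decarboxylase Odc1. The vertical axes do not start at 0 and differ between panels. Asl, both carriers and Odc1 are higher with dexamethasone in both genotypes, while Cps1, Otc, Nags and Arg1 were not called in either.

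Of the genes of glutamine, glutamate, ornithine and proline metabolism, glutamine synthetase alone was called. Glul read 11.34, 11.45 and 11.45 against 11.68, 11.84 and 11.72 in wild type, and 11.48, 11.29 and 11.37 against 11.64, 11.64 and 11.65 in the knockout, with no overlap. It rose by 0.33 ± 0.08 in wild type (adjusted p = 0.0205, limma) and on average by 0.30 ± 0.06 (adjusted p = 0.00309), and the knockout change of 0.26 ± 0.08 had an adjusted p of 0.0818. A second Glul probe set changed by 0.41 ± 0.09 and 0.37 ± 0.09. The wild-type call was lost without WT vehicle 1 (0.30, adjusted p = 0.0794) or WT dexamethasone 2 (0.29, adjusted p = 0.0898). Glutamate dehydrogenase Glud1 (-0.03 ± 0.10 and 0.07 ± 0.10), ornithine aminotransferase Oat (-0.30 ± 0.20 and -0.17 ± 0.20) and proline dehydrogenase Prodh (-0.01 ± 0.18 and 0.31 ± 0.18) were not called.

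Of the 3 histidine genes, 1 fell with dexamethasone in wild type and none was called in the knockout. Hal, the histidase that begins it, read 10.95, 10.79 and 10.8 with vehicle and 10.17, 10.17 and 9.98 with dexamethasone in wild type, and 10.88, 10.48 and 10.88 against 10.73, 10.6 and 9.9 in the knockout. It fell by 0.74 ± 0.18 in wild type (adjusted p = 0.017) and by 0.54 ± 0.13 on average (adjusted p = 0.00909, limma), and the knockout change of -0.34 ± 0.18 was not called. The difference between genotypes was 0.40 ± 0.26 (adjusted p = 0.852). Uroc1, the urocanase, changed by -0.35 ± 0.12 (adjusted p = 0.0851) and -0.13 ± 0.12, and Ftcd, which passes the formimino group to folate, by -0.21 ± 0.10 (adjusted p = 0.194) and -0.10 ± 0.10. All 3 genes lay lower on every wild-type dexamethasone array than on every wild-type vehicle array, and all 3 overlapped in the knockout. Of all 17904 genes, 2594 lay apart in that direction in wild type and 2252 in the knockout. Amdhd1, the imidazolonepropionase between Uroc1 and Ftcd in the pathway and a gene of the wider list, fell by 0.74 ± 0.16 in wild type (adjusted p = 0.00978) and by 0.60 ± 0.12 on average (adjusted p = 0.00249). In the knockout its treatments lay apart too, with a change of -0.45 ± 0.16 that was not called (adjusted p = 0.128), and the genotypes differed by 0.29 ± 0.23 (adjusted p = 0.893). Without WT vehicle 1 or WT dexamethasone 3 the wild-type change of Hal was -0.69 (adjusted p = 0.0616) or -0.68 (adjusted p = 0.0631).

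For lysine, Aass, the bifunctional enzyme that begins its mitochondrial breakdown, rose in both genotypes. It read 10.15, 9.75 and 9.91 against 10.98, 10.98 and 10.74 in wild type, and 10.13, 9.68 and 10.18 against 11, 10.96 and 11.15 in the knockout. No dexamethasone array fell within the vehicle range. The increases were 0.96 ± 0.14 (adjusted p = 0.000629) and 1.04 ± 0.14 (adjusted p = 0.000343, limma), both kept in all 22 alternatives, and their difference was 0.08 ± 0.20 (95% interval -0.35 to 0.51). Bckdha and Bckdhb, the E1 subunits of the branched-chain ketoacid dehydrogenase, were not called, with changes from 0.05 to 0.19. In the wider list, Bcat2, the mitochondrial branched-chain aminotransferase, fell by 1.02 ± 0.11 in wild type (adjusted p = 7.86e-05) and by 0.55 ± 0.11 in the knockout (adjusted p = 0.00871).

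Of the 5 measured genes of methionine metabolism and transsulfuration, 0 were called in wild type by limma (3 with an unadjusted p under 0.05), Mat1a in the knockout, and Mat1a and Cbs on average. Mat1a, which makes S-adenosylmethionine in liver, read 12.28, 12.23 and 12.1 against 12.43, 12.39 and 12.42 in wild type, and 12.08, 11.8 and 12.07 against 12.45, 12.27 and 12.27 in the knockout, with no overlap in either. It rose by 0.34 ± 0.10 in the knockout (adjusted p = 0.0478) and by 0.28 ± 0.07 on average (adjusted p = 0.0129, limma), and the wild-type change of 0.21 ± 0.10 had an adjusted p of 0.211. The knockout call was lost in 16 of 22 alternatives, among them each of the 12 that left out a single array (changes of 0.25 to 0.39, adjusted p-values of 0.0524 to 0.191). Cbs, which joins homocysteine to serine, read 10.36, 10.34 and 10.14 against 10.01, 9.63 and 9.72 in wild type, and 10.37, 10.19 and 10.43 against 10.27, 10.02 and 9.63 in the knockout. Cbs changed by -0.49 ± 0.15 (adjusted p = 0.0529) and -0.36 ± 0.15 (adjusted p = 0.214) in the 2 genotypes and fell by 0.43 ± 0.11 on average (adjusted p = 0.0136). Both averages lost their call without the 4 arrays with pancreas transcripts (Mat1a 0.35, adjusted p = 0.0598; Cbs -0.31, 0.306) and with the Kupffer covariate (0.29, 0.0658 and -0.34, 0.145), and Cbs also with the pancreas covariate (-0.38, 0.0533). In wild type Cbs was called by limma with the 50th percentile filter, quantile normalisation, centring, the trended and robust variance or the replicate block (-0.54 to -0.49, adjusted p-values of 0.0326 to 0.0437). It was also called there without WT dexamethasone 1, KO dexamethasone 1 or KO dexamethasone 3 (-0.61 to -0.49, 0.0194 to 0.037). Cth, the lyase that follows Cbs, changed by -0.44 ± 0.18 and -0.28 ± 0.18 and was not called. Its average was called with the replicate block (-0.36, adjusted p = 0.0293) and without KO vehicle 2 (-0.45, 0.0217) or KO dexamethasone 1 (-0.43, 0.0303). Gnmt, a methyltransferase that uses up S-adenosylmethionine, changed by -0.10 ± 0.15 and -0.13 ± 0.15. Bhmt, which remethylates homocysteine from betaine, changed by 0.07 ± 0.10 and -0.08 ± 0.10 in its brightest probe set, by 0.10 ± 0.10 and -0.12 ± 0.10 in another and by 0.46 ± 0.10 and 0.21 ± 0.10 in the dimmest, so its probe sets did not give a single size of change.

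The largest change of the 38 genes in wild type and on average was the decrease of Gatm, which makes guanidinoacetate, the precursor of creatine, from arginine and glycine. Gatm read 6.32, 5.84 and 5.72 in wild-type vehicle livers and 3.66, 3.32 and 4.08 with dexamethasone. In the knockout it read 6.28, 6.03 and 6.05 with vehicle and 4.78, 5.57 and 4.43 with dexamethasone. Every dexamethasone array lay below every vehicle array of either genotype. It fell by 2.27 ± 0.26 in wild type (4.82-fold, adjusted p = 8.7e-05) and by 1.19 ± 0.26 in the knockout (2.29-fold, adjusted p = 0.0109, limma). Both calls were kept in all 22 alternatives, with wild-type changes from -2.47 to -1.41 and knockout changes from -1.52 to -0.95. The WT dexamethasone values lie close to the array medians of 3.132 to 3.239. Of the listed kidney genes, Aqp2 read 3.78 to 4.69 over the 12 livers, so these Gatm values lie within or below its range. Slc34a1 (2.68 to 3.18), Umod (2.22 to 2.6), Kap (2.23 to 2.53) and Slc12a1 (2.23 to 2.37) read below them. Probe sets differ in how strongly they bind, so such levels are only rough marks of background. How far background at this level limits the size of the wild-type fall and its contrast with the knockout was not tested. Gatm read 6.32 and 5.84 on the WT vehicle arrays with pancreas transcripts and 5.72 on the array without them, 4.08 against 3.66 and 3.32 for WT dexamethasone, and 6.05 against 6.28 and 6.03 for KO vehicle. Without the 4 arrays the changes were -2.23 ± 0.38 (adjusted p = 0.0156) in wild type, where the lone vehicle array is assumed to vary like the other groups, and -1.23 ± 0.28 (adjusted p = 0.0348) in the knockout. Gamt, which methylates guanidinoacetate to creatine, read 8.9, 8.98 and 9.06 against 8.55, 8.79 and 8.77 in wild type, and 8.87, 8.83 and 8.93 against 8.69, 8.67 and 8.71 in the knockout. The treatments lay apart in both genotypes, and the changes of -0.27 ± 0.09 and -0.19 ± 0.09 were called as an average fall of 0.23 ± 0.06 (adjusted p = 0.0208). That call was lost without WT vehicle 3 (-0.21, adjusted p = 0.0522), WT dexamethasone 1 (-0.19, 0.0525) or KO vehicle 3 (-0.22, 0.0543).

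Around these genes, 79 further genes of amino acid pathways were measured. With dexamethasone 8 rose and 11 fell in wild type, and 6 rose and 3 fell in the knockout, 24.1% and 11.4% of the list against the 11.5% and 8.29% of all genes. On average 11 rose and 13 fell, 30.4% against 17.2%. Without the 4 arrays with pancreas transcripts, which leaves 1 wild-type vehicle array, fewer genes of the list and fewer of all genes were called in wild type, in the knockout and on average. The calls of single genes of the wider list come from all 12 arrays, and which of them were kept in that fit is not given here. With the Kupffer marker mean as a covariate 1 rose and 2 fell in wild type, and 7 rose and 7 fell on average. Of all 17904 genes, 448 and 1930 were then called, against 2064 and 3085 without the covariate. Among the increases were 2 transporters: Slc43a1, which carries large neutral amino acids (1.00 ± 0.22 and 1.34 ± 0.22, adjusted p = 0.00873 and 0.0014), and the glutamate carrier Slc1a2 (0.82 ± 0.16 and 0.64 ± 0.16, adjusted p = 0.00404 and 0.0226). Asparagine synthetase Asns read 5.62, 4.79 and 4.5 against 7.1, 7.03 and 5.96 in wild type, and 6.1, 6.2 and 6.16 against 7.35, 6.73 and 6.42 in the knockout. It rose by 1.73 ± 0.32 in wild type (adjusted p = 0.00363, limma), and the knockout change of 0.68 ± 0.32 was not called (difference -1.05 ± 0.46, adjusted p = 0.789). The kynurenine aminotransferase Kyat1 rose in both genotypes (0.39 ± 0.11 and 0.68 ± 0.11, adjusted p = 0.0375 and 0.00162). Among the decreases were the taurine transporter Slc6a6 (-0.68 ± 0.13 and -0.82 ± 0.13, adjusted p = 0.00397 and 0.00126), the asparaginase Aspg (-0.81 ± 0.15 in wild type, adjusted p = 0.00309) and the serine hydroxymethyltransferase Shmt1 (-0.55 ± 0.10 in wild type, adjusted p = 0.00359). In the knockout, the neutral amino acid carrier Slc1a4 also fell (-0.49 ± 0.13, adjusted p = 0.0401, limma). It read 3.52, 3.44 and 3.54 against 3.13, 2.94 and 2.97, near the array medians of 3.132 to 3.239. How far background limits this value was not tested.

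Of 15 listed transcriptional and hormonal regulators of these pathways, 14 were measured; 3 rose and 1 fell in wild type (28.6% of the list against 11.5% of all genes), and 6 rose and 1 fell in the knockout (50% against 8.29%). Without the 4 arrays with pancreas transcripts the increases numbered 3 and 6 and the decreases 0 and 0. On average 6 rose and 2 fell (57.1% against 17.2%), and 6 and 1 without the 4 arrays. The fasting regulators Foxo1 (1.20 ± 0.09, adjusted p = 9.27e-07), Cebpb (1.18 ± 0.10, adjusted p = 2.42e-06) and Ppargc1a (1.09 ± 0.14, adjusted p = 9.82e-05) rose, as did Klf15, a glucocorticoid-induced activator of amino acid catabolism (0.53 ± 0.09, adjusted p = 0.00127), Foxo3 (0.53 ± 0.10, adjusted p = 0.00163) and Hnf4a (0.39 ± 0.08, adjusted p = 0.00279, limma). The C/EBP family member Cebpa fell by 0.82 ± 0.13 (adjusted p = 0.000495) and the glucagon receptor gene Gcgr by 0.30 ± 0.08 (adjusted p = 0.0236). Klf15 read 8.45, 8.67 and 8.55 against 8.79, 8.63 and 8.89 in wild type, and 8.26, 7.69 and 8.06 against 8.97, 8.85 and 8.74 in the knockout. Its change was 0.22 ± 0.13 and 0.85 ± 0.13, and their difference of 0.63 ± 0.19 was not called (adjusted p = 0.62). No regulator was called between genotypes.

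Between the genotypes, Ddc was the single gene of the 38 with a called difference. Under vehicle Ddc was higher in the knockout by 1.08 ± 0.14 (2.12-fold, adjusted p = 0.00885, limma), 1 of 38 genes against 0.101% of all genes (0.0391% higher and 0.0614% lower), and the 3 knockout arrays (7.88 to 8.32) lay above the 3 wild-type arrays (6.9 to 7.12). Under dexamethasone the knockout values of 6.86 to 7.06 lay above the wild-type values of 6.25 to 6.71, a change of 0.52 ± 0.14 that was not called (adjusted p = 0.285). Averaged over treatments it was 0.80 ± 0.10 higher (adjusted p = 0.00857), again 1 of 38 genes, against 0.0503% of all genes (0.0168% higher and 0.0335% lower). Over all 12 arrays the genotypes overlapped for each of the 38 genes, and 0.357% of all genes had no overlap. The vehicle call was lost without WT vehicle 2 (1.04 ± 0.16, adjusted p = 0.0562). Without the 4 arrays with pancreas transcripts the differences were 1.24 under vehicle (adjusted p = 0.175) and 0.83 on average (adjusted p = 0.15), so neither was called.

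Under dexamethasone 0 of the 38 genes was called between genotypes by limma, against 0.0279% of all genes (0.0112% higher and 0.0168% lower), and 3 of the 38 had an unadjusted p under 0.05 (Ddc, Gatm and Bckdha), as had 1566 of the 17904. Gatm was higher in each knockout dexamethasone array (4.43 to 5.57) than in each wild-type one (3.32 to 4.08), by 1.24 ± 0.26 (adjusted p = 0.158). Without KO dexamethasone 3 this was 1.49 and was called (adjusted p = 0.0482), and without the 4 arrays with pancreas transcripts it was 1.44 (adjusted p = 0.311). Bckdha was lower by 0.24 ± 0.10 (adjusted p = 0.538). Under vehicle Tat (-0.43 ± 0.16, adjusted p = 0.593), Gpt (-0.42 ± 0.11, adjusted p = 0.369) and Mat1a (-0.21 ± 0.10, adjusted p = 0.693) lay lower on every knockout array than on every wild-type array without being called. Groups did not overlap for 4 genes under vehicle (1 higher, 3 lower) and 5 under dexamethasone (3 higher, 2 lower), against 11.8% and 14% of all genes.

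**Figure D4:**
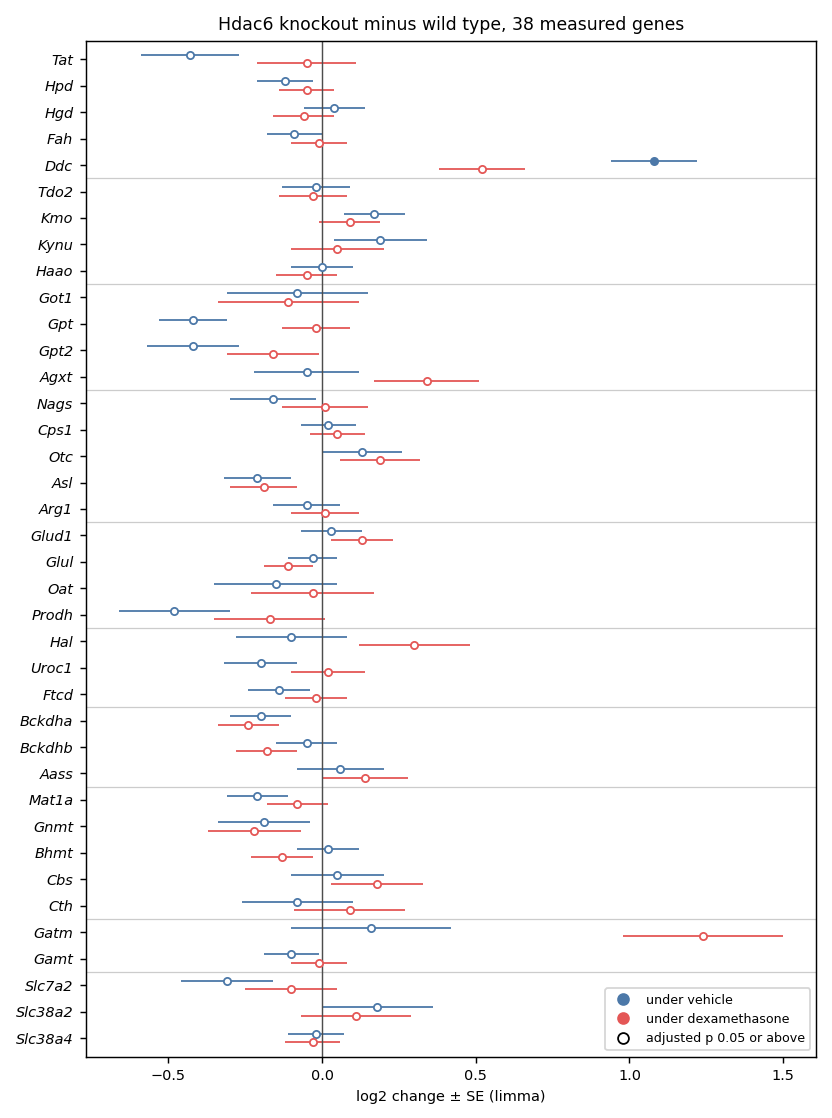
Log2 difference between knockout and wild type (± SE, limma, 3 arrays against 3) under vehicle and under dexamethasone for the 38 measured genes, in the same order as the plot of dexamethasone changes; the filled point passed an adjusted p of 0.05. Ddc under vehicle, at 1.08, is the filled point, and Gatm under dexamethasone lies farthest to the right at 1.24.

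The dexamethasone response itself was not called different between the genotypes for any of the 38 genes or any of the 17904 genes tested (0%), and 3 of the 38 and 1109 of all genes had an unadjusted p under 0.05. The 3 were Gatm, whose measured fall was smaller in the knockout, with the wild-type dexamethasone values near the array medians (difference 1.08 ± 0.37, 95% interval 0.28 to 1.87), Ddc, whose fall was larger (-0.56 ± 0.20, -0.98 to -0.14), and Gpt (0.40 ± 0.15, 0.08 to 0.73), each with an adjusted p of 0.754 in limma. For the genes with the largest increases the difference was -0.06 ± 0.25 for Slc38a2, -0.03 ± 0.33 for Got1 and 0.38 ± 0.22 for Tat. A difference that misses the threshold does not show that the responses were equal. The sign was positive (knockout minus wild type) in 24 of 38 genes, 63.2% against 50.4% of all genes, with a median of 0.08 against 0.

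A single knockout vehicle array bears on these genotype values. KO vehicle 2 was the lowest of its group for 33 of the 38 genes, against 33.7% of all genes, and the lowest of all 12 arrays for 16. The 38 genes deviated from their group mean on it by a median of -0.13, against 0 for all genes. With this array, 12 of the 38 genes were higher in the knockout under vehicle and the median difference was -0.07; without it, 20 were higher and the median was 0.01. Ddc was kept without it (1.12 ± 0.16, adjusted p = 0.0331), Tat was then -0.20 ± 0.10 and Gpt2 -0.21 ± 0.12. The median difference of the dexamethasone effects was 0 without it, and 10 genes were called with dexamethasone in the knockout. Its summed log2 level was 7.1 for the pancreas markers and 10.34 for the Kupffer markers, the highest of its group for the latter, and their part in these values was not tested.

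**Figure D5:**
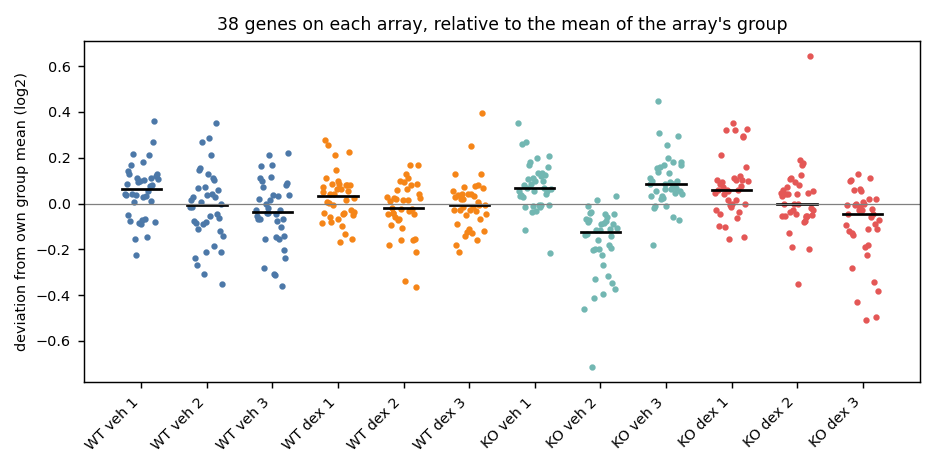
Deviation of each of the 38 genes (points) on each array from the mean of the array's own group, in log2 units; black lines are medians. On KO vehicle 2 the median is -0.13 and 33 of the 38 genes are at their group's lowest value, while the other 11 medians lie between -0.05 and 0.08.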

How the data were processed

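Liver RNA of 12 mice was measured on Affymetrix arrays. The authors deposited 1 table of log2 intensities with 34760 probe sets; they used R 2.10.0 and affy, per the submitters' processing notes, and the background correction, normalisation and summarisation are not given in the sources used here. Array medians ran from 3.132 to 3.239, and the number of arrays limits the precision. Gene symbols came from the platform annotation (21640 probe sets with 1 symbol, 1321 with several, 11799 with none), and RefSeq GRCm38.p6 changed 0 symbols and gave the promoter windows. Genes above the 20th percentile of an array on at least 3 of 12 arrays were kept (17904). limma 3.58.1 in R 4.3.3 fitted 4 group means with 8 residual and 5.07 prior degrees of freedom, and 7 comparisons were adjusted by Benjamini-Hochberg over all genes; the fit was tested on simulated data. Replicate numbers were not used as a block, because the labels do not say that they pair animals. The 43 genes, the wider pathway and regulator lists, the marker lists and the tests were chosen with earlier results of these data known. Marker lists for hepatocytes, exocrine pancreas, Kupffer cells, endothelium and kidney are used above. Lists for stellate cells, cholangiocytes and pericentral and periportal hepatocytes were also counted and are not reported here. Array values are given for each of the 38 genes called in at least 1 comparison, and the others by their changes; from the wider list up to 4 called genes per comparison and direction with the smallest p are named, and regulators called on average. Amdhd1, Odc1, Asns in the knockout, Klf15 by array and Otc and Gpt by array were singled out after their values were seen. Figures used Python 3.11.15 and matplotlib 3.10.9.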

Additional observations from a re-analysis of the deposited data

How the results depend on the processing

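Across 22 alternatives (filters, quantile normalisation, centring, mean of probe sets, trended and robust variance, a replicate block, each array left out, the 4 arrays with pancreas transcripts left out, and, chosen after seeing the data, the pancreas or Kupffer marker mean as a covariate), the 43 called changes gave 946 values, of which 867 stayed called, 79 lost the call and 0 reversed, and 22 changes were called under each alternative. Counts of called genes moved by over 1.5 times in wild type with dexamethasone, from 13 to 4 with the Kupffer covariate, against 2064 to 448 for all genes. Without the 4 arrays they also moved by over 1.5 times, in wild type and on average with dexamethasone. Between genotypes the calls under vehicle and on average were lost in that fit. Counts for all genes fell in the same comparisons. The cause was not tested, although the fit without the 4 arrays has 8 arrays. With single arrays left out the counts ran from 9 to 14 for dexamethasone in wild type, 9 to 10 in the knockout, 15 to 18 on average, 0 to 1 for genotype under vehicle (0 without WT vehicle 2), 0 to 1 under dexamethasone (1 without KO dexamethasone 3), 1 to 1 on average and 0 to 0 for the interaction. Array numbers are shared between groups, and the labels do not say that they pair animals. Same-numbered arrays deviated together with r from -0.537 to 0.356, above 0.1 in 3 of 18 pairs. For differently numbered arrays r ran from -0.349 to 0.399, above 0.1 in 11 of 36 pairs. These are deviations from means of 3 arrays, so they cannot show whether same-numbered animals shared a litter or day. With the replicate block the counts were 14, 11 and 19 for dexamethasone in wild type, knockout and on average, 1, 0 and 1 for genotype under vehicle, dexamethasone and on average, and 0 for the interaction. Centring changed the split of all genes called in wild type from 819 higher and 1245 lower to 657 and 1551, and the 38 genes' split from 9 and 4 to 9 and 6. Low signal bears on Gatm, whose WT dexamethasone values of 3.32 to 4.08 lie near the array medians of 3.132 to 3.239. It also bears on Slc1a4 of the wider list, with knockout values of 2.94 to 3.54.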
